A study of Mus musculus with 6 samples.

Results

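The genes described here are 8 genes of red blood cells and their precursors: the adult globins *Hba-a1*, *Hba-a2*, *Hbb-bs* and *Hbb-bt*, the heme enzyme gene *Alas2*, the membrane protein gene *Slc4a1*, the transcription factor gene *Klf1* and the globin chaperone gene *Ahsp*. They were chosen by gene symbol, as a gauge of blood in the tissue, and all 8 of 8 symbols were found among the 19831 genes listed. The RNA came from inguinal adipose tissue (iAT), the subcutaneous fat depot of the groin, of mouse pups at postnatal day 6 (P6), kept under specific-pathogen-free conditions. The series held 6 samples, 3 wild-type and 3 Npffr1-KO, the latter lacking neuropeptide FF receptor-1, and asked which transcripts change when this receptor is ablated. RNA was extracted from the whole tissue with TRIzol, so that fat cells, vessels and the blood inside them entered each library together. The labels name neither strain, sex, litter nor the way in which the receptor was deleted, and do not say whether the 3 samples of a genotype came from separate animals, so that p-values measure only the spread between these samples.

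Hemoglobin of the adult mouse is built from alpha and beta chains in equal number. The alpha chains come from *Hba-a1* and *Hba-a2*, and the beta chains from *Hbb-bs* and *Hbb-bt*, the gene pair carried by C57BL/6-type mice. *Alas2* encodes the erythroid 5-aminolevulinate synthase, which starts heme synthesis. *Slc4a1* encodes band 3, the anion exchanger that anchors the red cell membrane to its skeleton. *Ahsp* encodes a protein that binds free alpha globin and keeps it from precipitating. *Klf1* is the erythroid Krüppel-like factor, which switches on adult beta globin and many other red cell genes. Circulating reticulocytes keep globin RNA in abundance, whereas the transcription factors are mostly used in nucleated precursors. In whole tissue, fewer cells of a type and less RNA per cell cannot be told apart.

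The members of each globin pair are near copies, which is shown here because it limits how far their values can be told apart. On GRCm38, in the GENCODE M21 annotation, *Hba-a1* lies on chromosome 11 from 32283511 to 32284465 and *Hba-a2* from 32296489 to 32297298, both on the plus strand and both with 3 exons. *Hbb-bs* lies on chromosome 7 from 103826534 to 103827928 and *Hbb-bt* from 103812524 to 103813996, both on the minus strand and also with 3 exons. The coding sequences of *Hba-a1* and *Hba-a2*, of 429 bases each, differed at 1 base, written C381T with positions counted from 1 at the A of the start codon of *Hba-a1*. The coding sequences of *Hbb-bs* and *Hbb-bt*, of 444 bases each, also differed at 1 base, C417T, counted from the A of the start codon of *Hbb-bs*. Both changes lie in exon 3 and leave the protein as it is. The capital below marks the differing base within the coding part of exon 3, in the direction of the gene, for chr11:32284313-32284373 and chr11:32297130-32297190 (plus strand) and chr7:103826665-103826722 and chr7:103812656-103812713 (minus strand).
*Hba-a1*: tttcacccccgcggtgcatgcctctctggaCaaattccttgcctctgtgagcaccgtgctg
*Hba-a2*: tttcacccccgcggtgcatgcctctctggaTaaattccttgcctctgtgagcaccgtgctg
*Hbb-bs*: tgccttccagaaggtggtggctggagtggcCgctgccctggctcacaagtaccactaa
*Hbb-bt*: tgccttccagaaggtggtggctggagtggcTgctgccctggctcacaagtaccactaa

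Of all stretches of 50 bases in the annotated transcripts of *Hba-a1*, 72.3% also occurred in *Hba-a2*, and 89.3% of those of *Hba-a2* occurred in *Hba-a1*. For the beta pair the shares were 53.2% for *Hbb-bs* and 58.3% for *Hbb-bt*. For *Alas2*, *Slc4a1* and *Klf1* the share found in any other gene was 0.0%. The split of reads within each globin pair is therefore uncertain, and the sum of each pair is given beside the single values.

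The promoters of the globins are shown because the same few letters recur in them. RefSeq promoter windows on GRCm38.p6 were held for 6 of the 8 genes, and the 250 bases before each start were searched on both strands for CACCC, the letters bound by Krüppel-like factors, for CCAAT, for GATAA, the letters bound by GATA factors, and for TATAA. No motif overlapped another in the stretches printed, which run from base -120 to base -21 before the start and have each match in capitals, a match of CCAAT on the other strand reading ATTGG. The stretches are chr11:32283552-32283651 for *Hba-a1* (plus strand), and chr7:103827949-103828048 for *Hbb-bs* and chr7:103813944-103814043 for *Hbb-bt* (minus strand). The starts used here are those of RefSeq, and for *Hba-a1* and *Hbb-bt* they differ from the GENCODE starts given above. The *Hba-a1* stretch lies inside the GENCODE span of that gene, and the *Hbb-bt* stretch lies partly inside its own.
*Hba-a1*: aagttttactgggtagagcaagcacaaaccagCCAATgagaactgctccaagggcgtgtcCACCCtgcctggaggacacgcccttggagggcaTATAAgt
*Hbb-bs*: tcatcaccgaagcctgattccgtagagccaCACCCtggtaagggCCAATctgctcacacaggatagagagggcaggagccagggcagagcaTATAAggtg
*Hbb-bt*: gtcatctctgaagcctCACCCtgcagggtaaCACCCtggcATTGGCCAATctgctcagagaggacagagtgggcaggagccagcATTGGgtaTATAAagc

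The windows of *Hba-a1* and *Hba-a2* shared an unbroken run of 247 identical bases, whereas the longest run shared by *Hbb-bs* and *Hbb-bt* was 14 bases. All 4 globin windows held each of the 4 motifs within 250 bases of the start. The TATAA nearest the start began at base -27 in *Hba-a1*, -29 in *Hbb-bs* and -28 in *Hbb-bt*. The nearest CACCC began at -60, -90 and -89 in the same order. The window of *Klf1* held all but TATAA, and that of *Alas2* held all but CCAAT. Of 32851 promoter windows of the same length, 52.0% held CACCC, 33.8% CCAAT, 22.6% GATAA and 22.8% TATAA, so that each motif alone is common. The share of windows holding all 4 motifs was not worked out. A match is a description of the letters and not a measured binding site.

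The deposited table held 1 value per genotype for each gene, in normalized counts over the 3 samples, called pooled here, with no value per sample. For genes with few reads, the whole reads of each of the 6 libraries could be worked out from the decimals of the 2 values, which gave 1 solution for 7481 of the 7612 genes with a mean below 100 (98.3%). These libraries are called a, b and c within a genotype, in the order of their size factors, which ran from 0.916 to 1.04. The letters do not tie a library to a numbered sample. The pooled values were not the plain means of the reads. *Ahsp* means of 23.7 (wild-type) and 63.1 (Npffr1-KO) normalized reads were listed as 28.3 and 58.6. *Hbb-bh1*, an embryonic globin gene with 0 reads in each wild-type library, was listed at 0.310 in wild-type. Ratios and counts past a fold from pooled values and from reads are therefore not on the same scale. For genes without reads per library this gap is unknown. *Npffr1*, the targeted gene, had 5, 0 and 1 reads in wild-type libraries a, b and c and 0 reads in each Npffr1-KO library. A count of 0 allows up to 3 reads, so that 6 reads against 0 is a thin check of the genotypes. The adipocyte marker *Fabp4*, a fatty acid carrier, stood at 241927 (wild-type) and 268092 (Npffr1-KO) normalized counts per kb.

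The globins were among the most abundant transcripts of the tissue. Divided by gene length, *Hba-a1* stood at 117812 (wild-type) and 130759 (Npffr1-KO) normalized counts per kb, and only 2 of the 19831 genes were higher in wild-type. *Hbb-bs* followed at 93417 and 109091 per kb and *Hba-a2* at 59454 and 65865, with 5 and 7 genes above them in wild-type. *Hbb-bt* was lower, at 12062 and 14191 per kb. *Alas2* stood at 1010 per kb in wild-type and 1119 in Npffr1-KO, a level that 1898 genes exceeded in wild-type. The other 3 genes were in the lower part of the table: *Ahsp* stood at 57.2 and 119 per kb, *Slc4a1* at 56.5 and 66.3, and *Klf1* at 4.30 and 6.41. The order of the 8 genes per kb was the same in both genotypes. In wild-type *Ahsp* and *Slc4a1* were next to each other and nearly level, and with 1 pooled value no spread is known for most of these genes.

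**Figure D1:**
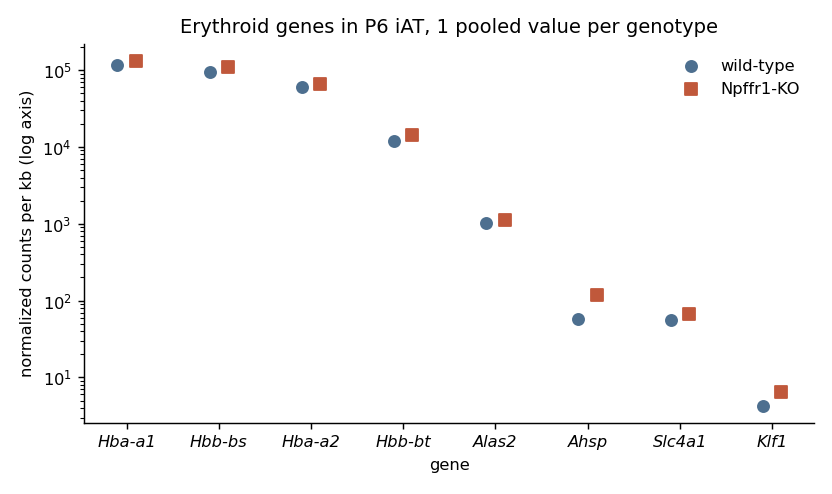
Level of each of the 8 genes in normalized counts per kb of gene length, on a log axis, with 1 pooled value for wild-type (circles) and 1 for Npffr1-KO (squares). Values run from 4.30 for *Klf1* to 117812 for *Hba-a1* in wild-type, and every square lies above its circle.

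Together the 4 globins summed to 169420 (wild-type) and 191941 (Npffr1-KO), which is 0.732% and 0.812% of all normalized counts. The ratio of alpha to beta globin RNA, each divided by gene length, was 1.68 in wild-type and 1.59 in Npffr1-KO. Within the alpha pair, *Hba-a1* was assigned 1.98 times as much per kb as *Hba-a2* in wild-type and 1.99 times in Npffr1-KO. Within the beta pair, *Hbb-bs* was assigned 7.75 and 7.69 times as much per kb as *Hbb-bt*. The split within each pair thus hardly moved between the genotypes, on values that share most of their sequence.

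All 8 genes had a higher value in Npffr1-KO than in wild-type, where 50.4% of all listed genes did. For 6 of the 8 the log2 ratio lay between 0.15 and 0.23. *Hba-a1* was listed at 67035 normalized counts in the wild-type column and 74402 in the Npffr1-KO column, which gave a log2 ratio of 0.15. *Hba-a2* went from 34899 to 38663, a log2 ratio of 0.15. *Hbb-bs* went from 59694 to 69709 and *Hbb-bt* from 7792 to 9167, log2 ratios of 0.22 and 0.23. The summed alpha pair was 1.11 times and the summed beta pair 1.17 times as high in Npffr1-KO. No replicate values exist for these 4 genes, so these ratios have no error and no test.

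The direction of the globins depended on the genes they were set against. In these data shorter genes tended to be higher in Npffr1-KO: of the 767 genes of at most 837 bases whose mean was 10 normalized counts or more, 80.4% were higher in Npffr1-KO, with a median log2 ratio of 0.27. The globins are short, with listed lengths of 569 to 646 bases. Relative to the median of that length class, *Hba-a1* came to -0.12, *Hba-a2* to -0.12, *Hbb-bs* to -0.04 and *Hbb-bt* to -0.03 on the log2 scale. All 4 globins were thus higher in Npffr1-KO as listed and slightly lower than genes of like length. The part that length takes in these ratios was not tested.

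**Figure D2:**
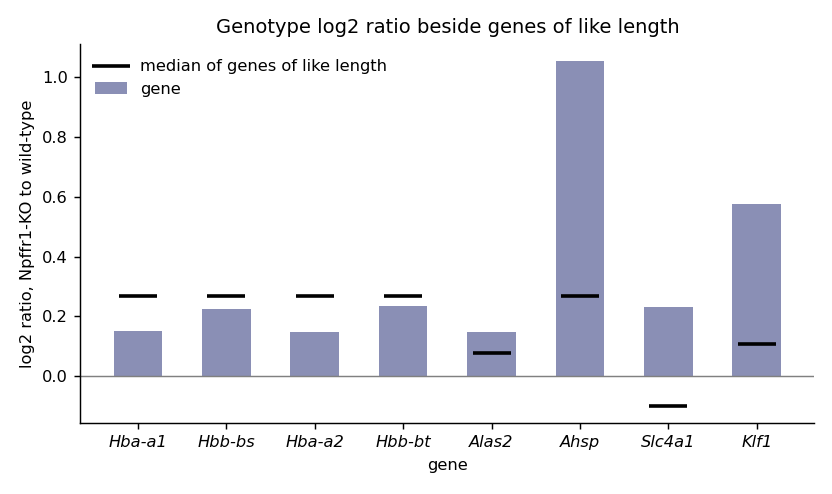
Bars give the log2 ratio of the Npffr1-KO to the wild-type value for each of the 8 genes, and black marks the median log2 ratio of genes of like length. The 4 globins end below their mark at 0.27, whereas *Ahsp* at 1.05 and *Klf1* at 0.58 end above theirs.

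*Alas2* was listed at 1993 (wild-type) and 2209 (Npffr1-KO) normalized counts, a log2 ratio of 0.15 where genes of like length had a median of 0.08. It stood beside the housekeeping form of the same enzyme, *Alas1*, which went from 2486 to 3314. Per kb, the ratio of *Alas2* to *Alas1* was 1.10 in wild-type and 0.912 in Npffr1-KO. Without division by length it was 0.802 and 0.667, so that *Alas1* was then higher in both genotypes. The order of the 2 forms thus differed between the genotypes only per kb, on pooled values of unknown spread. *Alas1* and the later enzymes of heme synthesis are used by every cell type, and 10 of the 10 other heme synthesis genes with a mean of at least 10 were higher in Npffr1-KO, where 51.2% of all genes with such a mean were. Their median log2 ratio was 0.25, or 0.14 relative to genes of like length. Examples were *Tmem14c*, a porphyrin carrier of the mitochondrion, with 1516 and 2024, *Uros*, uroporphyrinogen III synthase, with 261 and 359, and *Fech*, ferrochelatase, with 1723 and 1773. None of the 10 reached a log2 ratio of 0.5 in size, where 4.37% of the 15309 genes with such a mean did so upward and 4.78% downward.

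*Slc4a1* was listed at 259 (wild-type) and 304 (Npffr1-KO) normalized counts. Its log2 ratio of 0.23 stood against a median of -0.10 among genes of like length, so that the gap widened to 0.33 when length was taken into account. *Slc4a1* had too many reads for the libraries to be separated, and the spread behind this ratio is unknown.

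*Ahsp* and *Klf1* were the 2 of the 8 genes past a log2 ratio of 0.5, where 4.36% of all listed genes were past it in this direction. *Klf1* had a mean under 10. *Ahsp* was listed at 28.3 (wild-type) and 58.6 (Npffr1-KO) normalized counts, a log2 ratio of 1.05. *Klf1* was listed at 6.60 and 9.83, a log2 ratio of 0.58. These 2 were also the only members whose reads per library could be worked out, and for both the listed values lay closer together than the mean reads did.

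*Ahsp* had 11, 30 and 32 reads in wild-type libraries a, b and c and 31, 115 and 41 reads in Npffr1-KO libraries a, b and c. Divided by the size factors these were 10.9, 29.4 and 30.9 normalized reads in wild-type and 33.8, 116 and 39.5 in Npffr1-KO. The groups did not overlap, but libraries a and c of Npffr1-KO lay just above the upper pair of wild-type, and library b stood far above all others. The means were 23.7 ± 11.1 (SD, n = 3) and 63.1 ± 45.9 (SD, n = 3), a 2.66-fold difference. The exact two-sided permutation test gave p = 0.1, the smallest p that 3 samples against 3 allow. Among the 2959 genes with reads per library and a mean of at least 10, all 3 Npffr1-KO libraries lay above all 3 wild-type libraries for 6.49%. On the log2(normalized reads + 1) scale, limma estimated a difference of 1.28 (SE 0.47), with an adjusted p of 0.29. Without Npffr1-KO library b the ratio of the means fell from 2.66 to 1.55, the limma difference was 0.73 and the adjusted p was 0.54. Without wild-type library a, the lowest one, the limma difference was 0.82 and the adjusted p 0.63.

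*Klf1* had 3, 7 and 7 reads in wild-type libraries a, b and c and 9, 16 and 7 reads in Npffr1-KO libraries a, b and c. The normalized reads were 2.98, 6.85 and 6.76 in wild-type and 9.82, 16.1 and 6.75 in Npffr1-KO. The groups overlapped, since library c of Npffr1-KO was level with the upper pair of wild-type, and library b was again the highest. The means were 5.53 ± 2.21 (SD, n = 3) and 10.9 ± 4.79 (SD, n = 3), a 1.97-fold difference, and the exact two-sided permutation test gave p = 0.3. Without Npffr1-KO library b the log2 ratio of the means fell from 0.98 to 0.58. The gene lay below the minimum mean of 10 for limma, and with a minimum of 5 the difference was 0.86 (SE 0.58) with an adjusted p of 0.63.

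**Figure D3:**
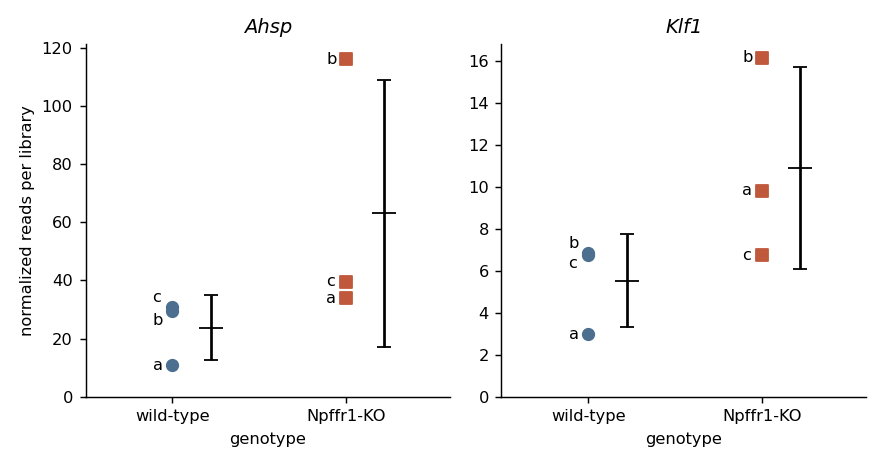
Normalized reads of *Ahsp* and *Klf1* in each library, with the library's letter beside its point and the mean ± SD of the 3 libraries of a genotype in black. Npffr1-KO library b is the highest point in both panels, at 116 for *Ahsp* and 16.1 for *Klf1*.

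Across all genes with reads, limma called 0 of 2959 genes at an adjusted p under 0.05 (0.0%), and 356 genes (12.0%) had an unadjusted p under 0.05. An adjusted p above 0.05 does not show that *Ahsp* was level between the genotypes.

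The pattern over libraries was then described for the other erythroid genes. From 6 gene lists (other globins, heme synthesis, red cell membrane and skeleton, erythroid transcription, iron supply, and red cell enzymes and late maturation) and the members, 14 genes had reads per library and a mean of at least 10. Npffr1-KO library b was the highest of the 6 libraries for 9 of these 14 genes (64.3%), where it was the highest for 14.0% of all 2959 genes. Library b was singled out after its *Ahsp* value was seen, and *Ahsp* is 1 of the 9. For *Rhag* and *Hemgn* the mean of the other 5 libraries was below 10, so that they passed the minimum mean only through library b. The count of 9 is therefore partly set by the choice of genes. The median ratio of library b to the mean of the other 5 libraries was 1.74 over the 14 genes. *Ahsp*, *Rhag* and *Hemgn* are among these genes too, so that the same choice enters this ratio. Over all 2959 genes the median ratio was 0.977.

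**Figure D4:**
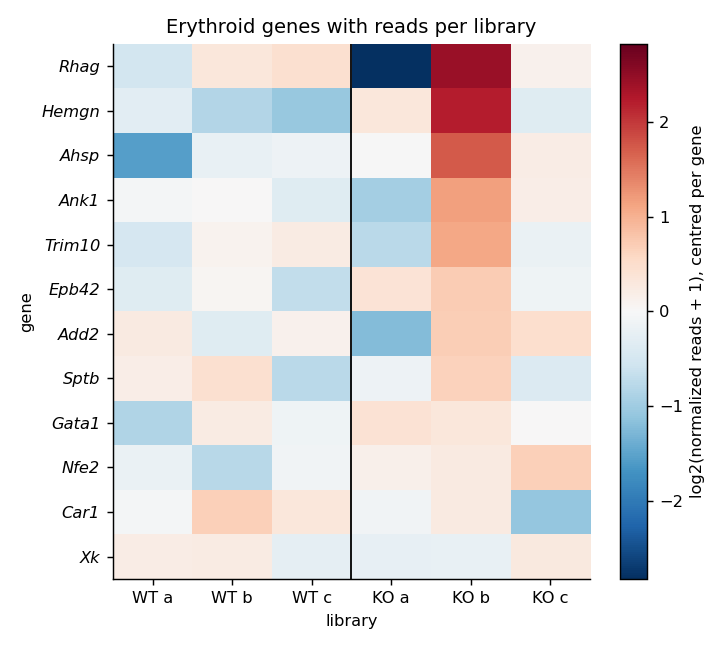
Colour gives log2(normalized reads + 1) of 12 of the 14 erythroid genes in each library, centred on each gene's mean over the 6 libraries, with the genes ordered by their value in Npffr1-KO library b (KO b). KO b was the highest library for 8 of the 12 genes plotted, where it was for 14.0% of all 2959 genes. *Rhag*, *Hemgn* and *Ahsp* head the order, which was set by KO b itself. *Rhag* and *Hemgn* passed the minimum mean only through KO b, and *Ahsp* is the gene through which KO b was singled out.

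*Hemgn*, which encodes hemogen, a nuclear protein of developing blood cells, had 9, 6 and 5 reads in wild-type libraries a, b and c and 13, 55 and 9 in Npffr1-KO libraries a, b and c. *Rhag*, the Rh-associated glycoprotein of the red cell membrane, had 4, 8 and 9 reads in wild-type and 0, 37 and 7 in Npffr1-KO. These 2 genes stood 6.53 and 6.85 times as high in Npffr1-KO library b as in the mean of the other libraries. Both were among the 14 genes only through that library. *Ank1*, the ankyrin that ties band 3 to the membrane skeleton, had 44, 47 and 37 reads in wild-type and 21, 102 and 54 in Npffr1-KO. It was highest in library b, whereas the count of library a of Npffr1-KO was the lowest of all 6. *Trim10*, a gene of late red cell maturation, had 11, 17 and 19 reads in wild-type and 8, 34 and 14 in Npffr1-KO. Among sparser genes, *Rhd* had 4, 4 and 2 reads in wild-type and 3, 25 and 9 in Npffr1-KO, *Kel* had 2, 7 and 11 against 5, 26 and 8, and *Tspo2* had 2, 8 and 4 against 5, 22 and 10. These 3 genes encode membrane proteins of red cells and their precursors. They were named after their values were seen, and each was highest in the same library as *Ahsp* and *Klf1*. *Hbq1b*, a globin gene that is also sparse, was highest in library c of Npffr1-KO. The share of all genes this sparse that were highest in library b was not worked out.

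Among the transcription factor genes, *Gfi1b*, a repressor used in red cell and platelet precursors, had 5, 4 and 8 reads in wild-type and 2, 15 and 7 in Npffr1-KO, and like *Klf1* it was highest in library b. *Gata1*, the master factor of the erythroid and megakaryocyte lineages, had 23, 50 and 40 reads in wild-type and 51, 52 and 44 in Npffr1-KO, with library a of Npffr1-KO the highest after scaling. *Nfe2*, which both lineages also use, had 30, 20 and 33 reads in wild-type and 35, 41 and 57 in Npffr1-KO. The *Nfe2* groups did not overlap, and their means were 27.1 ± 6.57 and 44.8 ± 8.89 (SD, n = 3), with an adjusted p of 0.39 from limma. *Ahsp* and *Nfe2* were the 2 of 14 genes with all Npffr1-KO libraries above all wild-type libraries, and 0 of 14 had the reverse, where 6.49% and 10.5% of the 2959 genes did. *Car1*, a carbonic anhydrase of red cells, had 17, 29 and 23 reads in wild-type and 15, 21 and 8 in Npffr1-KO, and was the 1 gene of the 14 past a log2 ratio of -0.5, where 18.6% of the 2959 genes were.

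**Figure D5:**
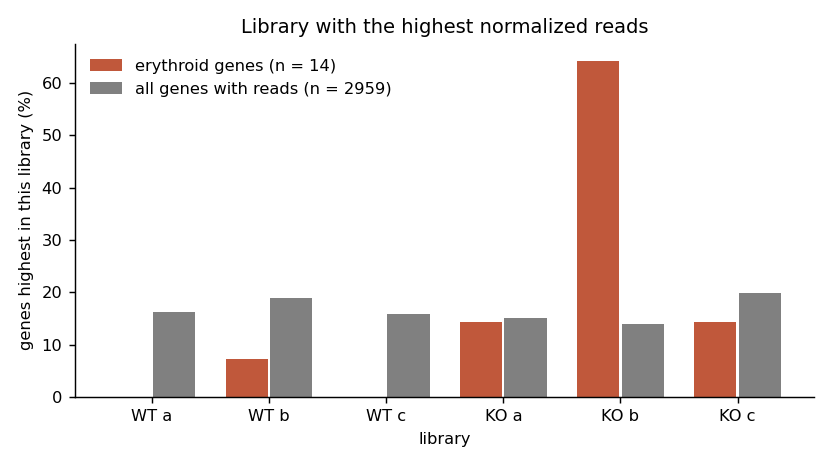
Bars give the percentage of genes whose normalized reads were highest in each library, for the 14 erythroid genes and for all 2959 genes with reads per library. The erythroid bar of KO b reaches 64.3%, whereas the bars of all genes lie between 14.0% and 19.9%. That erythroid bar includes *Ahsp*, through which KO b was singled out. It also includes *Rhag* and *Hemgn*, which passed the minimum mean only through KO b.

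By the ratio of mean reads, 8 of the 14 erythroid genes were past a log2 ratio of 0.5 upward, where 13.3% of the 2959 genes were. The median log2 ratio over the 14 was 0.53. *Rhag* and *Hemgn*, which passed the minimum mean only through library b, were among the 8. Without Npffr1-KO library b, 4 of the 14 genes were past 0.5 upward and 2 past -0.5 downward, where 14.9% and 22.2% of the 2959 genes were. The median over the 14 was then 0.09. Leaving out any other library gave 6 to 9 genes upward, where 12.6% to 16.8% of the 2959 genes were. The summed normalized reads of the 11 membrane and skeleton genes were 351, 356 and 253 in wild-type libraries a, b and c and 334, 623 and 328 in Npffr1-KO libraries a, b and c, so that only library b lay above the wild-type range. For the 6 enzyme and late maturation genes the sums were 41.7, 58.7 and 49.3 in wild-type and 46.9, 138 and 48.2 in Npffr1-KO. For the 3 transcription factor genes *Gata1*, *Nfe2* and *Gfi1b* the sums were 57.6, 72.4 and 78.2 in wild-type and 96.0, 109 and 104 in Npffr1-KO, and here the groups did not overlap. Of the 12 genes on that list only these 3, all with few reads, had reads per library. By pooled values, 5 of its 11 genes with a mean of at least 10 were higher in Npffr1-KO. Summed over all 12 genes, the pooled value was lower there, at 12658 against 13722 for wild-type. How often sums of 3 genes fail to overlap was not worked out. The summed reads of all 2959 genes ran from 106724 to 118739 over the 6 libraries, with library b inside that range. Whether the globins, *Alas2* and *Slc4a1* were also highest in library b could not be worked out, because their means were too high for the libraries to be separated.

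Markers of platelets and neutrophils were set beside the erythroid genes. Among markers with reads and a mean of at least 10, Npffr1-KO library b was the highest for 1 of 4 for platelets and 0 of 8 for neutrophils. It was the highest for 14.0% of all 2959 genes, and counts this small cannot be told apart from that share. Summed normalized reads were taken over all markers with reads per library, also those with a mean under 10. For 8 platelet markers they were 149, 184 and 200 in wild-type and 152, 174 and 125 in Npffr1-KO. For 9 neutrophil markers they were 353, 199 and 205 in wild-type and 217, 197 and 310 in Npffr1-KO. Of all 7 platelet markers with a mean of at least 10 in the deposited values, 3 were higher in Npffr1-KO, with a median log2 ratio of -0.07, or -0.14 relative to genes of like length. Of 13 neutrophil markers 7 were higher, with a median of 0.05 that turned to -0.05 relative to genes of like length. The parts that other cell types take in the erythroid values were not tested.

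The genes whose profile over the 6 libraries was most like that of *Ahsp* and *Klf1* belonged to none of the erythroid lists. By the mean absolute difference of centred log2 values, the 5 closest of 2958 genes were *F630111L10Rik*, *Samd11*, *Fibcd1*, *Kif26b* and *Stamos*, at 0.265 to 0.299. *Kif26b*, for example, had 8, 16 and 13 reads in wild-type and 12, 30 and 18 in Npffr1-KO. *Gata1* ranked 15 by the same measure. The profile itself was lowest in wild-type library a, at -1.32, and highest in Npffr1-KO library b, at 1.38. This likeness is a description over 6 libraries.

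Other globin genes had few reads. *Hbq1b*, a theta-type globin gene, had 9, 3 and 5 reads in wild-type and 10, 7 and 12 in Npffr1-KO, and the groups overlapped. *Hba-x*, the embryonic alpha-like gene, had 0, 1 and 0 reads in wild-type and 2, 0 and 0 in Npffr1-KO. *Hbb-bh1*, an embryonic beta-like gene, had 0 reads in each wild-type library and 0, 1 and 1 in Npffr1-KO. *Hbq1a* had 0, 1 and 2 reads in wild-type and 3, 0 and 0 in Npffr1-KO. Nearly all globin RNA measured at P6 was thus that of the 4 adult genes.

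Across the deposited values of the erythroid lists, 39 of 56 genes with a mean of at least 10 were higher in Npffr1-KO, where 51.2% of all such genes were. Of the 56, 5 were past a log2 ratio of 0.5 upward and 1 downward, where 4.37% and 4.78% of all 15309 genes were. *Hemgn*, 1 of the 5, and *Rhag* passed the minimum mean only through Npffr1-KO library b. Both count among the 39 and in the counts of their lists below. The median log2 ratio was 0.16, or 0.11 relative to genes of like length, against 0.01 over all genes. *Tfrc*, the transferrin receptor through which cells take up iron, went from 896 to 1533, a log2 ratio of 0.77. *Epor*, the erythropoietin receptor, which endothelial cells and other cells also carry, went from 679 to 435, a log2 ratio of -0.64. Genes past it upward included *Tfrc*, *Hemgn* (9.97 to 22.7), *Nfe2* (28.3 to 43.6) and *Epb42*, which encodes protein 4.2 of the membrane (32.0 to 47.8). The iron storage genes *Ftl1* and *Fth1* went from 27066 to 34419 and from 22968 to 26953, log2 ratios of 0.35 and 0.23. By list, 10 of 13 membrane and skeleton genes were higher in Npffr1-KO, with a median log2 ratio of 0.12, or 0.25 relative to genes of like length. Of 11 transcription genes 5 were higher, with a median of -0.04 that turned to 0.07 relative to genes of like length. Of 8 genes of the erythropoietin receptor and iron supply 7 were higher, with medians of 0.21 and 0.12 in the same order. Of 14 enzyme and late maturation genes 7 were higher, with medians of 0.01 and 0.03. Most abundant members of these lists are used by many cell types, among them *Gypc* (2334 and 2509), *Ldb1* (6030 and 5345), *Cat* (11156 and 10809) and *Prdx2* (3661 and 4772). Of 9 endothelial markers, 1 was higher in Npffr1-KO, where 51.2% of all genes were, with a median log2 ratio of -0.41, or -0.30 relative to genes of like length, and *Vwf* went from 3613 to 1998. Of 8 adipocyte markers 6 were higher, with medians of 0.15 and 0.06 in the same order, and *Lep* went from 4210 to 8703. These are pooled values without replicates or a test.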

How the data were processed

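RNA-seq was done on inguinal adipose tissue from 3 wild-type and 3 Npffr1-KO samples. Per the labels, the authors used Bowtie2, RSEM and DESeq2; their versions, the build and the annotation were not given in the sources used here. The deposited signal is 1 normalized count value per gene and genotype, called pooled here, which was not the plain mean of the samples where this could be checked. Columns of the authors' own log2 fold changes and p-values, and a table of selected genes, were not used. Log2 ratios of the 2 signal values were taken without a pseudocount. The mean of the values is a weighted sum of 6 whole numbers. Genes with a single read gave the 6 weights, the genotype column that was higher gave each library's genotype, and a lattice search (numpy 2.4.6) listed every combination of whole reads for genes with a mean under 100. RSEM estimates had been rounded upstream. The search was tested on reads drawn with a known answer, and for 5286 genes with a log2 ratio of reads over 0.1 in size, the reads and the deposited values had the same direction in 100.0%. limma 3.58.1 (R 4.3.3) was run with a mean-variance trend on log2(normalized reads + 1) for 2959 genes with means of 10 or more, with Benjamini-Hochberg adjustment. Exact permutation tests used scipy 1.17.1. The depth of each library is unknown. The 20 length classes held genes with a mean of at least 10. Sequences came from GENCODE M21 and RefSeq. Besides the 8 members, genes were named by rule: the 3 highest of each list, the 2 with the largest ratio, and the 5 most alike in profile; genes named for their reads per library, and *Npffr1*, were added after their values were seen. The members and lists were chosen with earlier results of these data known. Results of single genes on the lists that are withheld are not reported here; they count in the totals.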

Additional observations from a re-analysis of the deposited data

How the results depend on the processing

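Of the 8 genes, 2 were past the fold as reported; 1 was at a threshold of 1 on the log2 scale, with a pseudocount of 10, or when centred on genes of like length. Centring on length took the median log2 ratio from 0.228 to 0.0188 and turned *Hba-a1* to -0.12, *Hba-a2* to -0.12, *Hbb-bs* to -0.04 and *Hbb-bt* to -0.03. Without division by length, 6 of the 8 genes kept their place in the order. In the erythroid lists 5 of 56 genes were past the fold upward. With a minimum mean of 1 it was 9 of 66, and with a minimum mean of 100 it was 1 of 43. The share of all genes past the fold at these other minimum means was not worked out, so these counts cannot be set against it. limma called 0 genes as reported, 1 with a pseudocount of 5, 1 without the mean-variance trend, 1 with a minimum mean of 5, and 0 to 2 when each library was left out in turn; with a minimum mean of 5 and without Npffr1-KO library b it called 3. The limma difference of *Ahsp* ran from 0.73 to 1.61 over those 6 fits, and its adjusted p from 0.24 to 0.63 over all alternatives. From the reads, in alternatives added after seeing the data, the *Ahsp* log2 ratio was 1.41, or 0.63 without Npffr1-KO library b, and that of *Klf1* 0.98, or 0.58. Erythroid genes past the fold by reads numbered 4 to 9 over libraries left out, the lowest without Npffr1-KO library b. The causes were not tested. No paired analysis was possible because the libraries carry no replicate numbers. Pooled values leave the globins, *Alas2* and *Slc4a1* without error or test.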
